A study of Mus musculus with 12 samples.

Results

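The interaction of extracellular vesicle (EV) label with paclitaxel response was measured in the bulk RNA-seq libraries of MOC2, a cultured line from a squamous cell carcinoma of the mouse mouth. It is the paclitaxel effect in the derivative MOC2-27, labelled EV-Deficient, minus that in the derivative MOC2-25, labelled EV-Proficient, for every gene with an Ensembl identifier. All 12 libraries of the series entered it, 3 in each of 4 groups: MOC2-25 control, MOC2-25 paclitaxel, MOC2-27 control and MOC2-27 paclitaxel. Controls carried DMSO, the solvent, as their treatment label, and treated cells received 600 nM paclitaxel for 48 h to induce senescence. The release of vesicles was blocked genetically per the series text, but which gene was targeted is not in the labels. Only 1 derivative stands behind each EV label, so the label and other features of the derivative cannot be told apart. The labels do not say that replicates were separate cultures, so p-values measure the spread between these libraries, which may be technical. The EV labels are used here as deposited.

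Paclitaxel binds microtubules and stabilises them, which arrests cells in mitosis; cells that leave this arrest can enter senescence, a lasting stop of division. Senescent cells secrete chemokines, growth factors and proteases, and DNA in their cytosol can switch on interferon-stimulated genes through the cGAS and STING sensors. Vesicles are a further route by which such cells reach neighbours. An interaction is a difference of differences: a positive value means that the gene went up more, or down less, with paclitaxel in the EV-deficient libraries, and a negative value the opposite.

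Of the 55421 genes, 18108 passed the low-count filter and were tested with edgeR's quasi-likelihood test. The interaction passed an adjusted p of 0.05, which is what "called" means here, for 7370 genes (40.7%). It was positive for 3052 (16.9% of the genes tested) and negative for 4318 (23.8%). With upper-quartile scaling the split turned, to 3832 positive and 3275 negative, and the median of all genes moved from -0.040 to 0.083 on the log2 scale. Of the called genes, 2526 (13.9% of those tested) differed by at least 2-fold, 1420 upward (7.84%) and 1106 downward (6.11%). Library totals ran from 23263472 to 62955757 counts. The share called rose with expression, from 10.1% in the lowest of 5 equal bins of mean CPM (counts scaled to effective library size) to 59.7% in the highest, and the median standard error fell from 1.04 to 0.0932.

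The libraries did not group by their EV labels alone. In 1305 of the genes tested (7.21%), the 3 EV-proficient DMSO and the 3 EV-deficient paclitaxel libraries all lay above, or all lay below, the other 6 libraries. The same complete separation was found for 68 genes (0.376%) when the 6 EV-deficient libraries were set against the 6 EV-proficient ones. For 6665 genes (36.8%) it was found when the 6 paclitaxel libraries were set against the 6 DMSO libraries. These counts were chosen after the data were seen. A row that the authors added to the table for dngfr, a marker sequence that is no mouse gene model, followed the first of these patterns. It stood at 8.99 ± 3.23 CPM in EV-proficient DMSO and at 10.9 ± 1.42 CPM in EV-deficient paclitaxel libraries, against 3.24 ± 0.683 CPM with paclitaxel in EV-proficient and 2.15 ± 0.349 CPM with DMSO in EV-deficient cells (mean ± SD of 3 libraries). The interaction adds the EV-proficient DMSO and the EV-deficient paclitaxel means and subtracts the other 2 means, so a fixed difference between the derivatives would be added to it once per treatment if the EV labels of 1 treatment had been exchanged. Whether they were was not tested. The contrast that the interaction would become with the EV labels exchanged within DMSO called 1739 genes (9.6%), 617 positive and 1122 negative, and 1145 of them were also called with the labels as deposited. Exchanging the labels within paclitaxel instead gives the same contrast with its sign turned. Values under this exchange within DMSO are given below as "exchanged"; since their sign depends on which treatment is exchanged, they show which genes stay called and no direction.

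The label of the cell type was compared with marker genes. The epithelial genes Krt8, Krt18, Krt14, Epcam and Cdh1 were measured, but Krt5, a basal keratin, and Trp63, the p63 regulator of squamous cells, were at most 0.171 and 0.18 CPM in any library. The summed level of the 10 listed epithelial and squamous markers, carried mostly by the general epithelial Krt8, Krt18 and Cdh1, ran from 5570 to 6040 CPM with DMSO and 3940 to 4340 CPM with paclitaxel in EV-proficient cells, and from 5960 to 6460 CPM and 3410 to 3530 CPM in EV-deficient cells. Of 14 leukocyte markers, 5 had at most 3 counts in all libraries of each group, and the summed level ran from 12.2 to 13.5, 46.9 to 52, 23.8 to 25 and 35.8 to 46.8 CPM in the same order of groups. Csf1r, a macrophage growth factor receptor, and Ptprc, the pan-leukocyte marker CD45, had called negative interactions of -4.85 ± 0.26 and -1.52 ± 0.55 (SE). Fibroblast markers summed to at most 9.45 CPM and endothelial markers to at most 5.09 CPM in any library. The part of other cells in the results was not tested, and in bulk RNA a change in the number of cells of a type and a change in RNA per cell cannot be told apart.

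The share of counts from mitochondrially encoded genes went from 0.653 ± 0.0902% with DMSO to 0.878 ± 0.0309% with paclitaxel in EV-proficient cells, and from 0.644 ± 0.0763% to 1.27 ± 0.189% in EV-deficient cells (mean ± SD of 3 libraries). The gain with paclitaxel was 0.401 percentage points larger in the EV-deficient libraries (two-sided exact permutation test over 400 assignments of the EV labels within treatment, p = 0.055; the smallest p possible was 0.005). Without EV-proficient DMSO replicate 2 it was 0.452 points (exact permutation p = 0.02), and without EV-deficient DMSO replicate 2 it was 0.443 points (exact permutation p = 0.025). The p-values of the other runs with a single library left out are not shown. All such runs had fewer assignments, so the smallest p of 0.005 does not apply to them. The part of the mitochondrial share in the gene results was not tested.

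Most called interactions were no crossings but unequal or one-sided responses. Of the 7370 genes, 1897 (25.7%) had a called paclitaxel effect in the EV-deficient derivative alone and 1474 (20%) in the EV-proficient derivative alone. In the same direction in both, the effect was larger in the EV-deficient derivative for 1769 genes (24%) and larger in the EV-proficient derivative for 864 (11.7%). Called effects in opposite directions were found for 1283 genes (17.4%), of which 571 fell in EV-proficient and rose in EV-deficient cells and 712 did the reverse. The other 83 had no called effect in either derivative. For comparison, the paclitaxel effect was called for 58.2% of all genes in the EV-proficient and 62.9% in the EV-deficient derivative. Crossings made up more of the large differences: 733 of the 2526 genes that differed by at least 2-fold (29%). Genes that fell in both but further in the EV-deficient derivative were 1151 of all called genes and 52 of those at least 2-fold. On a linear scale of mean CPM, 5 of the 7370 interactions had the other sign; a crossing keeps its sign on either scale by construction.

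**Figure D1:**
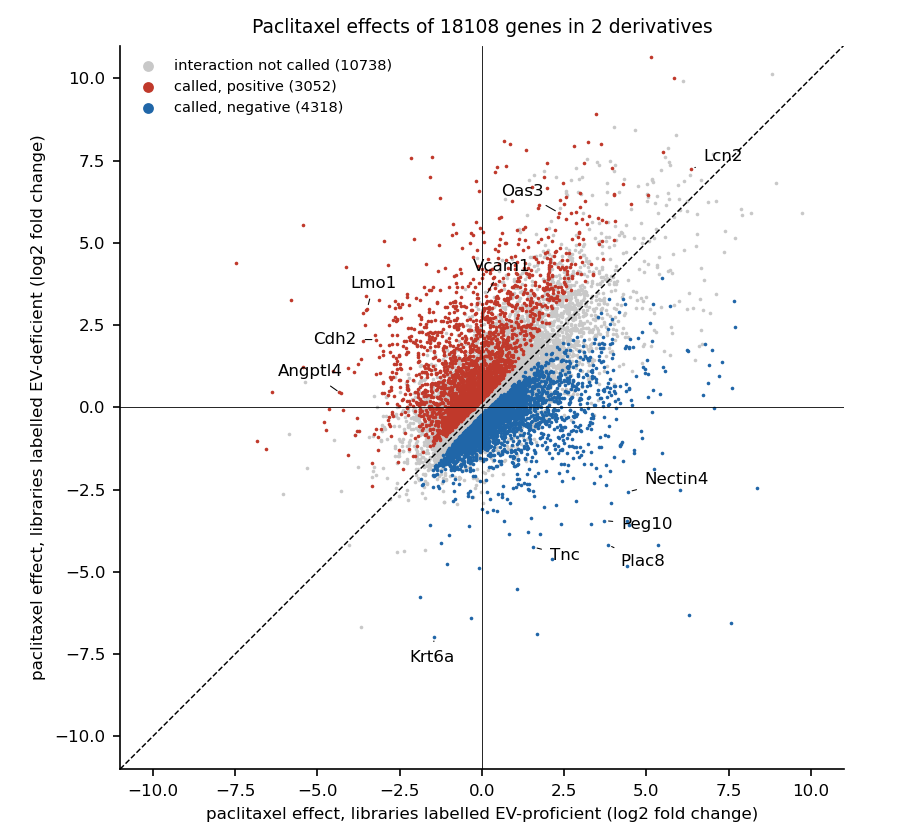
Paclitaxel effect (log2 fold change, paclitaxel against DMSO) in the libraries labelled EV-proficient (x axis) and EV-deficient (y axis); each point is 1 of 18108 genes, red for the 3052 called positive interactions, blue for the 4318 called negative ones and grey for the rest, and the dashed line marks equal effects. Lmo1 and Cdh2 lie in the upper left quadrant and Plac8, Peg10 and Nectin4 in the lower right, where the effects have opposite signs.

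The crossings shown first are those whose smaller effect was largest, a choice that favours effects of like size. Lmo1 (ENSMUSG00000036111), a LIM-only transcriptional cofactor, stood at 24.3, 27.3 and 28.6 CPM in EV-proficient DMSO and at 2.19, 2.78 and 2.06 CPM in EV-proficient paclitaxel libraries. In the EV-deficient derivative it stood at 1.95, 2.96 and 2.35 CPM with DMSO and at 19.4, 20.7 and 17.8 CPM with paclitaxel. The EV-proficient DMSO and EV-deficient paclitaxel libraries were thus high and the other 6 low, and each high group lay clear of each low group. The fall of 3.48 and the rise of 3.00 on the log2 scale differed by 6.48 ± 0.20 (SE; edgeR adjusted p = 5.38e-16). Ebf3, a helix-loop-helix transcription factor, Dmbx1, a homeobox factor, and Epdr1, an ependymin-related protein, had the same form, with interactions of 6.39 ± 0.38, 5.37 ± 0.27 and 5.26 ± 0.24.

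Plac8 (ENSMUSG00000029322), a small cysteine-rich protein, showed the reverse. It stood at 3.44, 3.45 and 3.92 CPM in EV-proficient DMSO and at 53.8, 51.3 and 47.8 CPM in EV-proficient paclitaxel libraries. With DMSO the EV-deficient libraries gave 69.2, 61.7 and 55.5 CPM, and with paclitaxel 3.32, 3.4 and 3.56 CPM. The high and the low libraries were again separate, and the 2 low groups overlapped. Its interaction of -8.01 ± 0.14 was the lowest among called genes with a mean of at least 5 CPM and a symbol that is no clone name (edgeR adjusted p = 9.36e-20). Peg10, an imprinted retrotransposon-derived gene, Nectin4, an adhesion molecule of epithelia, and Bmp7, a bone morphogenetic protein, followed with -7.17 ± 0.28, -7.02 ± 0.34 and -6.83 ± 0.22. Degs2, a sphingolipid desaturase and hydroxylase, rose by 2.14 and fell by 4.61 (interaction -6.75; exchanged 2.15 and called), and Edn2, the vasoactive peptide endothelin 2, rose by 1.07 and fell by 5.54. Of the 1283 crossings, 1063 (82.9%) had the EV-proficient DMSO and EV-deficient paclitaxel libraries completely apart from the other 6. None of the 8 genes in the plot of crossing genes was called with the EV labels exchanged within DMSO, with values from -0.46 for Lmo1 to 0.71 for Peg10.

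**Figure D2:**
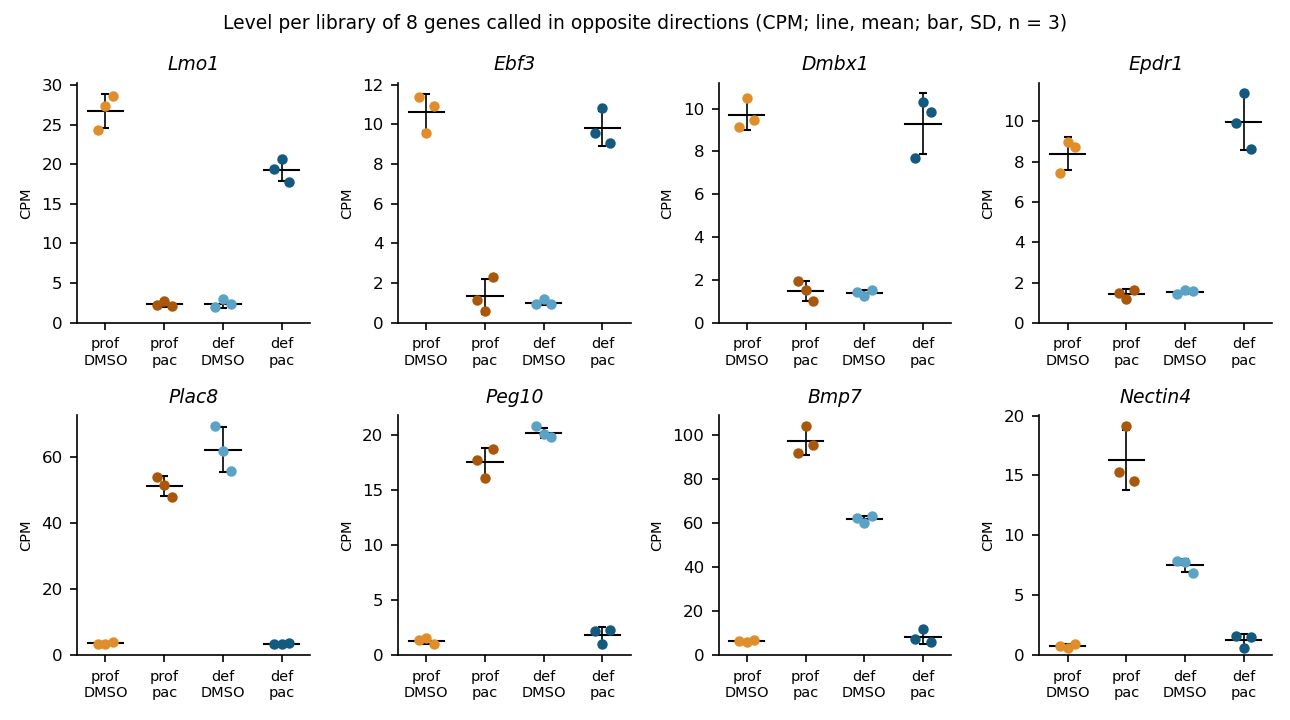
Level in CPM (linear y axis) of 8 genes with called paclitaxel effects in opposite directions, by group (prof, labelled EV-proficient; def, labelled EV-deficient; pac, paclitaxel); points are libraries, lines group means and bars SD (n = 3). The 4 genes of the upper row are high in EV-proficient DMSO and EV-deficient paclitaxel libraries, and the 4 of the lower row in the other 2 groups.

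The Hox genes, transcription factors that set position along the body axis and keep a regional pattern in adult cells, split by cluster. All 9 tested members of the Hoxb cluster had called positive interactions, from 4.35 for Hoxb3 to 6.90 for Hoxb5, with a median of 5.55. Of the 9 tested Hoxa members, 5 were called negative (Hoxa3 to Hoxa7, from -2.98 to -1.01), Hoxa9 was called positive at 2.18, and the others were not called. Hoxb9 stood at 41, 50.2 and 45.9 CPM in EV-proficient DMSO and 4.7, 4.48 and 5.34 CPM in EV-proficient paclitaxel libraries. In the EV-deficient derivative it stood at 7.44, 7.9 and 6.95 CPM with DMSO and 34.8, 33.1 and 34 CPM with paclitaxel, so that no group overlapped another. Its interaction was 5.45 ± 0.14 (edgeR adjusted p = 3.12e-17). Hoxa7, by contrast, rose by 1.82 in the EV-proficient derivative alone (interaction -2.02 ± 0.18). Over the 39 Hox genes measured, 20 were tested and 16 called (80%, against 40.7% of all genes), 11 positive and 5 negative. None of the 20 was called with the EV labels exchanged within DMSO.

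Interferon-stimulated genes rose in both derivatives, and 24 of the 36 tested rose more in the EV-deficient one. All 36 tested of 37 members were called up by paclitaxel in both, with a median effect of 3.25 in EV-proficient and 5.37 in EV-deficient cells on the log2 scale. The interaction was called positive for 24 and negative for 1 (69.4% called, against 40.7% of all genes), and its median was 1.54 against -0.04 over all genes tested. With limma-voom the median was 1.51, but 15 were called positive and 1 negative (44.4% called, near the 40% of all genes; 41.7% positive against 16.1%). Exchanging the EV labels within DMSO left 11 called positive, and 10 of the 25 stayed called. EV-deficient paclitaxel replicate 3 was the lowest of its group for all 36 genes, with a summed level of 856 CPM against 1509 and 1556 CPM in replicates 1 and 2. Without it the median was 1.80 and 30 genes were called positive and 1 negative. Oas3, an oligoadenylate synthetase that senses double-stranded RNA, stood at 2.19, 2.37 and 2.25 CPM in EV-proficient DMSO and at 11.4, 11.6 and 11.7 CPM in EV-proficient paclitaxel libraries. The EV-deficient libraries gave 0.964, 0.688 and 0.724 CPM with DMSO and 51.1, 62.9 and 31 CPM with paclitaxel. No group overlapped another, the EV-deficient libraries being lowest with DMSO and highest with paclitaxel, and the interaction was 3.57 ± 0.31 (edgeR adjusted p = 6.64e-09). Samd9l, an antiviral growth suppressor, rose by 0.53 and 3.84 (interaction 3.30 ± 0.22). Trim30a, a ubiquitin ligase of the TRIM family, rose by 3.11 and 7.44 (interaction 4.33 ± 0.65), at a mean below 5 CPM.

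Ifi44, an interferon-induced antiviral protein, had at most 3 counts in each EV-deficient DMSO library and 28.6, 30.3 and 12.2 CPM with paclitaxel. Summed over libraries these were 3 and 3682 counts, a ratio of 1140 per library size (95% exact interval 390 to 5540, counting error only). In EV-proficient cells it went from 0.146, 0.0718 and 0.176 CPM to 9.11, 6.78 and 6.35 CPM. Oasl1, a relative of the oligoadenylate synthetases that restrains translation of Irf7, was the member with a called negative interaction (-2.67 ± 0.32; exchanged 1.64 and called). It rose by 4.47 in EV-proficient and by 1.80 in EV-deficient cells, and its paclitaxel libraries overlapped (38.5, 38.1 and 30 CPM against 24, 36.1 and 15.2 CPM), while its DMSO libraries did not (1.66, 1.84 and 1.29 CPM against 6.48, 7.99 and 7.06 CPM). Ifnb1, the interferon beta gene, had at most 10 counts in any library and was not tested.

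**Figure D3:**
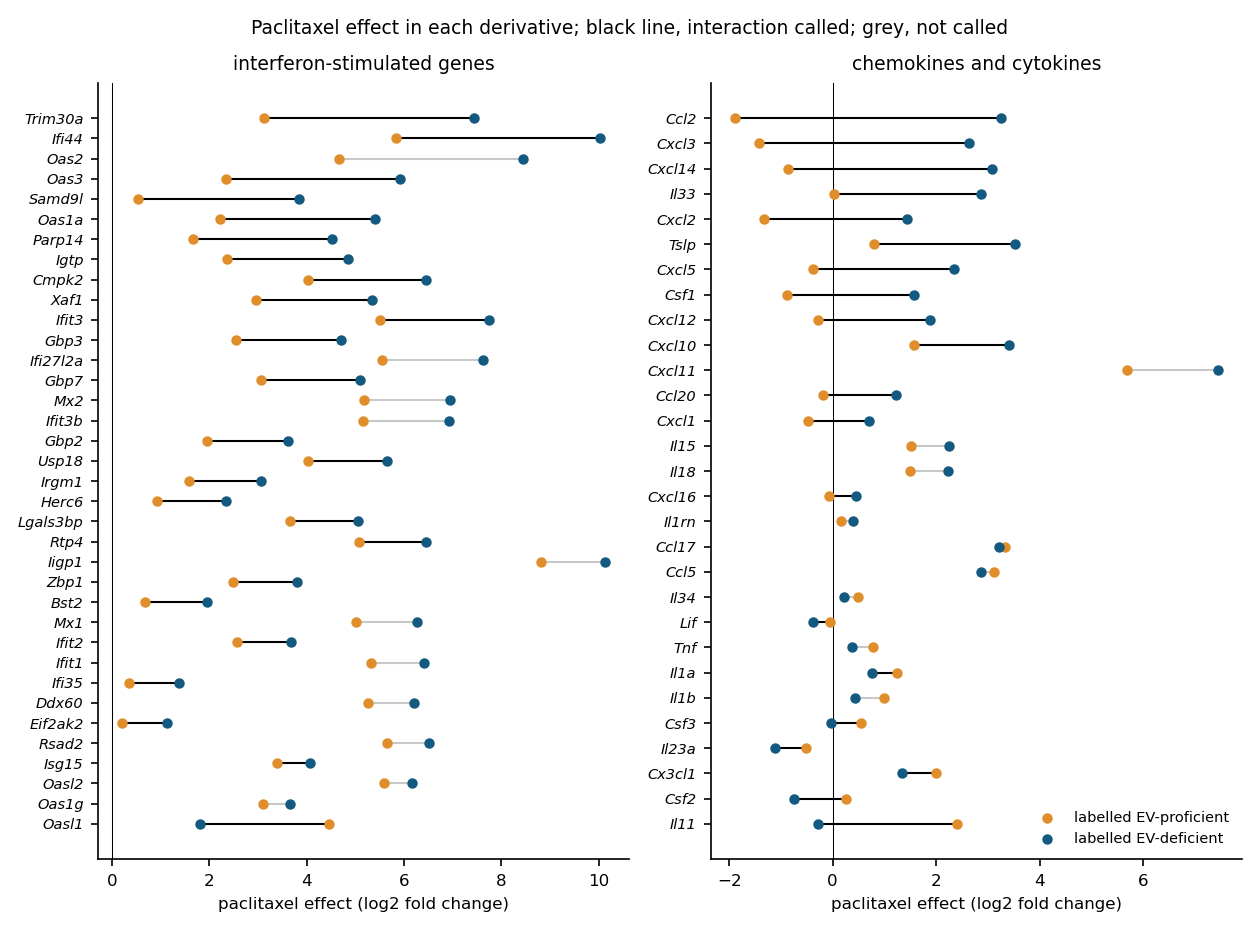
Paclitaxel effect (x axis, log2 fold change) of each tested interferon-stimulated gene (left) and chemokine or cytokine (right) in the libraries labelled EV-proficient (orange) and EV-deficient (blue); the line joining the effects is black where the interaction was called and grey where it was not. All 36 genes on the left lie above 0 in both derivatives, whereas genes on the right such as Ccl2, Cxcl3 and Cxcl2 lie on opposite sides of 0.

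Promoters of this list are shown because its members moved together. The interferon response element core, searched as GAAANNGAA on both strands from 250 bases before to 50 bases after the start site, was found in 19 of the 27 interferon-stimulated genes that matched the RefSeq promoter table (70.4%). It was found in 9.76% of the 27025 genes of that table, in 8.56% of its promoters, and in 8.52% of the matched genes that were tested. It was also found in 10 of 33 ribosomal protein genes (30.3%), which did not rise as the interferon-stimulated genes did, so a match is a description and not a site. Sequences are RefSeq's on GRCm38.p6, from 5′ to 3′ of the gene's strand, with the match in capitals.
Oas3 promoter, chr5:120777610-120777909, minus strand: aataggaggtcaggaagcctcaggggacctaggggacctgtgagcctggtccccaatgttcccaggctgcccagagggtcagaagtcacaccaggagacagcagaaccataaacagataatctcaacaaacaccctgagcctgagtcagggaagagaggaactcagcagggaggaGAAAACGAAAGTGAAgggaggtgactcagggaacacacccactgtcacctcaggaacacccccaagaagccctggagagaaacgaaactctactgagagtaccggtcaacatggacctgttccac
Samd9l promoter, chr6:3399522-3399821, minus strand: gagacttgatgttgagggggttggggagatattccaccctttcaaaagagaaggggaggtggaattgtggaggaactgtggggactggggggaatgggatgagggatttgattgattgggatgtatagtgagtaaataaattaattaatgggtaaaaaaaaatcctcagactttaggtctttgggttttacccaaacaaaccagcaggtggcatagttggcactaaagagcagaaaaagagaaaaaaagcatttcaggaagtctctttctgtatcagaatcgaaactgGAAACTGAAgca
Oas3 held 2 matches that overlap by a unit, starting 75 and 69 bases before the start site, and Samd9l held 1 starting 38 bases after it.

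The sensors and signalling genes upstream of these targets had a smaller median interaction and were mostly called positive. Of 25 tested, 15 were called positive (60%, against 16.9% of all genes) and 4 negative (16%, against 23.8%). Their median was 0.47 (9 positive and 0 negative with the EV labels exchanged within DMSO). Ddx58, which encodes the RNA sensor RIG-I, stood at 40.3, 35.8 and 39.7 CPM in EV-proficient DMSO and 53.5, 50.6 and 52 CPM in EV-proficient paclitaxel libraries. In EV-deficient cells it went from 22, 22.7 and 22.3 CPM to 114, 120 and 104 CPM, and no 2 groups overlapped (interaction 1.90 ± 0.10; edgeR adjusted p = 1.85e-12). Stat2, a transcription factor downstream of the interferon receptors, had 1.75 ± 0.18. Mb21d1, which encodes the DNA sensor cGAS, rose by 0.34 in EV-proficient cells and fell by 1.84 in EV-deficient cells, where it went from 24.6, 23.7 and 25 CPM to 7.68, 5.8 and 7.01 CPM (interaction -2.17 ± 0.15). The value of Mb21d1 was -0.02 and not called with the EV labels exchanged within DMSO.

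Antigen presentation and surface ligands of immune cells were called positive more often than negative. Of 22 tested genes of MHC class I presentation 11 were called positive (50%, against 16.9% of all genes) and 1 negative (4.55%, against 23.8%). The median was 0.38 (3 positive with the EV labels exchanged within DMSO). B2m, the invariant light chain of MHC class I, stood at 133, 148 and 152 CPM with DMSO and 266, 233 and 291 CPM with paclitaxel in EV-proficient cells, and at 105, 104 and 107 CPM and 424, 397 and 344 CPM in EV-deficient cells. It rose in both, with no overlap between any groups, and by 1.01 ± 0.11 more in the EV-deficient libraries (edgeR adjusted p = 3.4e-07). The classical heavy chains H2-D1 and H2-K1 rose in the EV-deficient libraries alone, by 0.69 and 0.54. H2-Q7, a non-classical molecule whose close paralogs may share its reads, was the member called negative (-3.62 ± 0.58), at a mean below 5 CPM.

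Of 17 tested checkpoint and NK receptor ligands, 8 were called positive (47.1%, against 16.9% of all genes) and 3 negative (17.6%, against 23.8%). With the EV labels exchanged within DMSO 1 was called. Lgals9, the galectin that binds TIM-3, stood at 6.38, 7.47 and 7.84 CPM in EV-proficient DMSO and 14, 14.5 and 12.7 CPM in EV-proficient paclitaxel libraries, and went from 3.34, 3.11 and 4.14 to 45.1, 37.8 and 31.2 CPM in EV-deficient ones. No groups overlapped, and the interaction was 2.50 ± 0.19 (edgeR adjusted p = 9.95e-10). Cd47, the signal that restrains phagocytes, had 1.97 ± 0.10, and Cd274, which encodes PD-L1, 1.95 ± 0.25. Tnfsf9, the ligand of the costimulatory receptor 4-1BB, had -1.28 ± 0.21: it rose by 0.70 in EV-proficient and fell by 0.58 in EV-deficient cells.

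Chemokines and cytokines held more crossings than the interferon targets. Of 29 tested, 13 were called positive and 7 negative (69% called, against 40.7% of all genes). Called effects in opposite directions were found for 7, and the median was 0.72. The median was 0.45 without EV-proficient DMSO replicate 1 and 0.47 without EV-deficient DMSO replicate 3. The exchange of EV labels within DMSO gave 11 called positive and 3 negative, 12 of the 20 among them. Cxcl2, a neutrophil attractant, stood at 24.3, 27.4 and 24.7 CPM in EV-proficient DMSO and 11.6, 8.28 and 10.6 CPM in EV-proficient paclitaxel libraries. In EV-deficient libraries it stood at 12.5, 13.2 and 12 CPM with DMSO and 35.1, 28.7 and 37.7 CPM with paclitaxel, all groups apart (interaction 2.76 ± 0.17; edgeR adjusted p = 2.14e-11). Ccl2, a monocyte attractant, fell by 1.88 and rose by 3.25, and Cxcl3 fell by 1.43 and rose by 2.64. Csf1, the macrophage growth factor, fell by 0.88 and rose by 1.56. Cxcl10, an interferon-induced attractant of T cells, rose in both, by 1.58 and 3.40. Csf2, which encodes GM-CSF, went the other way, with a rise of 0.26, a fall of 0.75 and an interaction of -1.02 ± 0.14 (exchanged 0.87 and called), and Il11 rose in EV-proficient cells alone (interaction -2.68 ± 0.28).

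The feedback genes of NF-kB, the factor that drives many of these cytokines, had 7 called positive and 4 called negative of 25 tested. The share called was 44%, near the 40.7% of all genes, and the median was 0.08. Exchanged, 6 were positive and 3 negative. With upper-quartile scaling 10 were positive and 3 negative (52% called, against 39.2% of all genes), with a median of 0.21. Vcam1, a leukocyte adhesion receptor, stood at 9.31, 6.92 and 8.49 CPM in EV-proficient DMSO and 10.2, 8.79 and 7.48 CPM in EV-proficient paclitaxel libraries, which overlap. It went from 4.76, 4.75 and 4.87 CPM to 51.7, 39.3 and 57.7 CPM in EV-deficient ones, a rise in that derivative alone (interaction 3.26 ± 0.20; edgeR adjusted p = 2.71e-11). It was 1.70 ± 0.20 and called with the EV labels exchanged within DMSO. Tnfaip2 had -2.08 ± 0.13 (exchanged 0.84 and called), with a rise of 2.34 in EV-proficient and of 0.27 in EV-deficient cells.

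**Figure D4:**
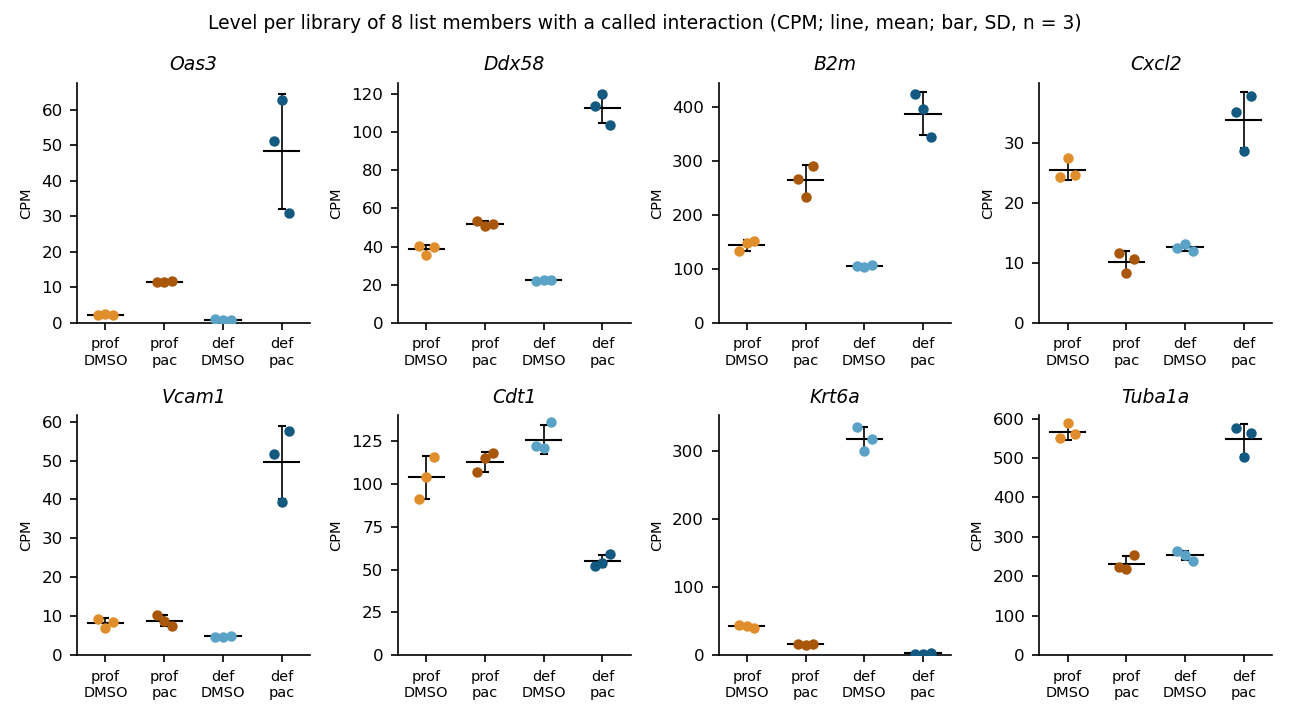
Level in CPM (linear y axis) of 8 genes with a called interaction, by group (prof, labelled EV-proficient; def, labelled EV-deficient; pac, paclitaxel); points are libraries, lines group means and bars SD (n = 3). Oas3, Ddx58, B2m and Vcam1 are highest in the EV-deficient paclitaxel libraries and Cdt1 lowest there, Krt6a is highest in EV-deficient DMSO libraries, and Cxcl2 and Tuba1a are high in EV-proficient DMSO and EV-deficient paclitaxel libraries.

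Matrix, protease and growth factor genes of the senescence secretome were split, 11 positive and 11 negative of 34 tested. The share called was 64.7%, against 40.7% of all genes, and 8 were crossings. Their median of -0.05 turned positive under upper-quartile scaling (0.08), and exchanged the counts were 6 and 4. Tnc, the matrix protein tenascin C, stood at 29.6, 28.8 and 27.8 CPM in EV-proficient DMSO and 88.5, 76.5 and 88.4 CPM in EV-proficient paclitaxel libraries, and fell from 239, 237 and 244 CPM to 12, 9.32 and 16.3 CPM in EV-deficient ones. All 4 groups were apart, and the interaction was -5.80 ± 0.17 (edgeR adjusted p = 2.1e-16). Igfbp4, an inhibitor of insulin-like growth factors, rose by 2.91 and fell by 0.61. Vegfa, the angiogenic growth factor, rose by 2.50 in EV-proficient and by 0.29 in EV-deficient cells. Serpine2, a protease inhibitor, had the highest positive interaction with a mean of at least 5 CPM (1.73 ± 0.17), and Mmp13, a collagenase, rose by 2.07 and 4.52.

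Genes of the cell division cycle mostly fell in both derivatives, and those with a called interaction had the lower value in the EV-deficient one. Of 35 DNA replication genes, paclitaxel lowered 30 in EV-proficient and 35 in EV-deficient cells, with median effects of -0.65 and -1.23. Their interaction was called negative for 25 (71.4%, against 23.8% of all genes) and positive for 0 (median -0.52). Of the 30 G2/M and mitosis genes, paclitaxel lowered 16 and raised 6 in EV-proficient cells. In EV-deficient cells it lowered 28 of these and raised 1. The interaction of the G2/M genes was called negative for 21 (70%) and positive for 0 (median -0.37). Upper-quartile scaling left 19 replication genes negative (54.3%, against 18.1% of all genes) and 0 positive. It left 15 mitotic genes negative (50%) and 1 positive. Under the exchange of EV labels within DMSO, 15 replication genes and 13 mitotic genes were called negative, 13 and 11 of them shared with the labels as deposited. Cdt1 (ENSMUSG00000006585), a licensing factor that loads the replicative helicase, stood at 91, 104 and 116 CPM in EV-proficient DMSO and 107, 115 and 118 CPM in EV-proficient paclitaxel libraries, which overlap. In EV-deficient cells it fell from 122, 121 and 136 CPM to 52.3, 53.8 and 59.1 CPM, below every other library (interaction -1.33 ± 0.11; edgeR adjusted p = 5.66e-09). Tk1, a kinase of thymidine salvage, fell by 0.60 and 1.93, and Mcm5, a subunit of the helicase, by 1.17 and 2.25. Aurkb, a mitotic kinase, rose by 0.30 in EV-proficient and fell by 0.78 in EV-deficient cells (-1.08 ± 0.10). Mki67, the proliferation marker Ki-67, fell by 0.43 and 0.51, with an uncalled interaction of -0.08 ± 0.13.

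Promoters of replication genes were searched for E2F elements, TTTCCCGC or TTTGGCGC on both strands of the same window, which were found in 10 of the 29 matched genes (34.5%), in 1.8% of all genes of the table and in 1.56% of its promoters. Among all matched genes that were tested, the share with an E2F element was 3.1%. Such elements were found in 0 of the 25 matched G2/M and mitosis genes. The 2 sequences below are shown because both genes had a called negative interaction, with the match in capitals, again from RefSeq on GRCm38.p6; the match in Mcm5 is on the opposite strand.
Cdt1 promoter, chr8:122567765-122568064, plus strand: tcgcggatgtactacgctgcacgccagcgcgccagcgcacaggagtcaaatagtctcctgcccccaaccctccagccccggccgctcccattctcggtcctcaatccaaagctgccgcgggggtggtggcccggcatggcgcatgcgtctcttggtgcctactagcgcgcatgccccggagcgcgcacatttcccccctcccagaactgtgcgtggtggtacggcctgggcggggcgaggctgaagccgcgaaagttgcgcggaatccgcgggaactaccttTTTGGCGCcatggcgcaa
Mcm5 promoter, chr8:75109259-75109558, plus strand: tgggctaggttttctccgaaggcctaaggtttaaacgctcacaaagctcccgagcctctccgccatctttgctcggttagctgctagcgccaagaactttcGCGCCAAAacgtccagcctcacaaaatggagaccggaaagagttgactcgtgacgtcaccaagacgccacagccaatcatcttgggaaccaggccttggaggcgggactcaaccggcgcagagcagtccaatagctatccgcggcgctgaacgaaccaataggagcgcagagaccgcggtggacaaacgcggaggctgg
The match in Cdt1 started 32 bases after the start site, and that in Mcm5 149 bases before it.

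CDK inhibitors and pocket proteins hold cells out of the cycle, but their list also holds the E2F factor E2f2. Of the 16 genes in the list, 8 were called negative (50%, against 23.8% of all genes) and 1 positive (6.25%, against 16.9%). The median was -0.44, and exchanged, 4 were negative and 0 positive. Cdkn1a, the CDK inhibitor p21, stood at 36.1, 39.2 and 41.7 CPM in EV-proficient DMSO and 53.6, 55.1 and 48.1 CPM in EV-proficient paclitaxel libraries. In EV-deficient libraries it went from 42.4, 37.6 and 41.7 CPM to 31.4, 35 and 25.5 CPM, so that the DMSO groups overlapped and the paclitaxel groups did not (interaction -0.83 ± 0.14; edgeR adjusted p = 3.67e-05). It was -0.72 ± 0.14 and called with the EV labels exchanged within DMSO. Cdkn2b, which encodes the inhibitor p15, rose by 1.68 and 1.06, and Cdkn2a, which encodes p16 and p19ARF, by 0.91 and 0.41; the call for Cdkn2a was lost with upper-quartile scaling and without EV-proficient paclitaxel replicate 1 or EV-deficient paclitaxel replicate 1 (-0.62 to -0.34 over all alternatives). E2f2, a member of the E2F family, was the lowest of the list at -1.33 ± 0.13. Rb1, a pocket protein, was the 1 called positive: it rose by 0.40 and 1.32 (interaction 0.93 ± 0.18). Of 29 p53 targets, 11 were called negative (37.9%, against 23.8% of all genes) and 5 positive (17.2%, near the 16.9% of all genes). With upper-quartile scaling 7 were called each way (24.1%, against 18.1% negative and 21.2% positive of all genes). Exchanged, 2 were negative and 1 was positive. Sfn, which encodes 14-3-3 sigma, fell by 0.43 and 2.61, and the death receptor gene Tnfrsf10b had 0.65 ± 0.09. Trp53 itself had an uncalled 0.09 ± 0.15.

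Other genes used as senescence markers had called interactions below 1 on the log2 scale. Lmnb1, the nuclear lamin lost in senescent cells, fell by 0.60 and 0.94 (interaction -0.34 ± 0.09), and Glb1, the lysosomal beta-galactosidase, rose by 0.67 and 1.09 (0.42 ± 0.12). Lcn2, a secreted iron-binding lipocalin, rose from 0.512, 0.407 and 0.82 CPM to 47.6, 47.6 and 44.5 CPM in EV-proficient and from 0.375, 0.73 and 0.526 CPM to 88.7, 87.4 and 68.4 CPM in EV-deficient cells. The DMSO groups overlapped and the paclitaxel groups did not. Its interaction of 0.88 ± 0.32 lost its call with limma-voom, without EV-proficient DMSO replicate 3 and without EV-deficient DMSO replicate 1 or 3 (0.57 to 1.14 over all alternatives).

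Tubulins, the target of the drug, and other microtubule proteins had 7 positive and 7 negative of 24 tested. Each was 29.2%, against 16.9% positive and 23.8% negative of all genes. Exchanged, 1 was positive and 7 were negative. Tuba1a, an alpha tubulin, stood at 551, 590 and 561 CPM in EV-proficient DMSO and 224, 219 and 254 CPM in EV-proficient paclitaxel libraries, and went from 263, 254 and 240 to 576, 503 and 564 CPM in EV-deficient ones. The EV-proficient DMSO and EV-deficient paclitaxel libraries overlapped at the high level, as the other 2 groups did at the low level, and the interaction was 2.40 ± 0.10 (edgeR adjusted p = 2.8e-14). Under the exchange of EV labels within DMSO it was 0.07 and was not called. Tubb2b, a beta tubulin, fell by 0.98 and rose by 1.08. Tubg1, the gamma tubulin that nucleates microtubules, fell by 0.25 and 0.99.

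Of 26 keratins and cornified envelope genes, 15 were called negative and 4 positive (73.1% called, against 40.7% of all genes), with a median of -0.55 that was -0.96 with a filter of 1 CPM in 3 libraries. Exchanged, 5 were called positive and 3 negative and the median was 0.40. Krt6a, a keratin of activated and hyperproliferative epithelium, stood at 43.9, 42.6 and 39.5 CPM in EV-proficient DMSO and 15.8, 14.7 and 15.9 CPM in EV-proficient paclitaxel libraries. It fell from 336, 300 and 318 CPM to 2.16, 2.03 and 3.25 CPM in EV-deficient ones, so that these libraries were both the highest and the lowest (interaction -5.54 ± 0.15; edgeR adjusted p = 4.93e-17). Exchanged it was 0.31 and not called. Its sequence relative Krt6b may share reads with it. Krt14, a basal keratin, fell by 3.09 in EV-deficient cells alone. Krt20, a keratin of gut and urothelium, rose by 1.77 in EV-deficient cells alone (1.88 ± 0.21).

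Genes of epithelial adhesion had 7 positive and 11 negative of 28 (64.3% called, against 40.7% of all genes). Mesenchymal genes had 8 positive and 6 negative of 22 (63.6% called). Exchanged, the counts were 2 and 7 for adhesion, and 3 and 0 for mesenchymal genes. Neither list gave a common direction, and the median of the mesenchymal list, 0.36, was -0.41 without EV-proficient DMSO replicate 2. Cdh2, which encodes N-cadherin, stood at 218, 235 and 224 CPM in EV-proficient DMSO and 24.9, 22.6 and 25.7 CPM in EV-proficient paclitaxel libraries, and went from 42.1, 39.7 and 37.7 to 161, 133 and 203 CPM in EV-deficient ones. All groups were apart, in the order of the crossing genes, and the interaction was 5.27 ± 0.15 (edgeR adjusted p = 1.39e-16). Prrx1, a mesenchymal homeobox factor, rose by 3.60 and fell by 0.89 (-4.49 ± 0.22; exchanged 2.11 and called). The desmosomal gene Dsp fell by 0.55 and rose by 0.33. Of 20 integrins and laminins, 12 were called negative (60%, against 23.8% of all genes) and 5 positive (25%, against 16.9%). Exchanged, 5 were negative and 3 positive. Itga2, a collagen receptor subunit, fell by 0.19 and rose by 1.06.

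Genes that respond to growth factor signalling were mostly called negative. Of 28 AP-1, immediate-early and ERK feedback genes, 18 were called negative (64.3%, against 23.8% of all genes) and 1 positive (3.57%, against 16.9%). The median was -0.59 (4 negative with the EV labels exchanged within DMSO). Dusp2, a MAP kinase phosphatase, rose by 1.09 and fell by 1.10, Etv5, an ERK-responsive transcription factor, rose by 1.65 and fell by 0.31, and Spry1, a feedback inhibitor of receptor tyrosine kinases, rose by 1.51 and fell by 0.44. Spry4, of the same family, was the 1 called positive (0.42 ± 0.13), a call lost with no low-count filter.

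Cytosolic ribosomal protein genes gave the most uniform list. Of 46 tested, 45 were called negative and 0 positive (97.8% called, against 40.7% of all genes), with a median of -0.56. With upper-quartile scaling 41 were called negative and 1 positive with a median of -0.44, and with the EV labels exchanged within DMSO 15 were called, all negative. Paclitaxel lowered 42 of them in EV-deficient cells and 7 in EV-proficient cells, where 15 rose. Rps19, a subunit of the small ribosomal particle, stood at 506, 598 and 517 CPM in EV-proficient DMSO and 510, 612 and 462 CPM in EV-proficient paclitaxel libraries, and fell from 683, 627 and 647 to 327, 353 and 309 CPM in EV-deficient ones. The EV-proficient groups overlapped and the EV-deficient groups lay on either side of them. Its interaction was -0.95 ± 0.12 (edgeR adjusted p = 1.62e-06). Ribosomal protein genes have many processed pseudogenes, which could share their reads. Nuclear-encoded respiratory chain genes had 19 negative (55.9%, against 23.8% of all genes) and 1 positive of 34 (median -0.30). With upper-quartile scaling 12 were negative (35.3%, against 18.1% of all genes) and 1 positive. Exchanged, 3 were negative and 0 positive. The mitochondrially encoded genes had 5 positive and 0 negative of 13 (38.5% called, below the 40.7% of all genes; median 0.33; exchanged, 4 and 0), mt-Rnr2 highest at 0.96 ± 0.12.

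**Figure D5:**
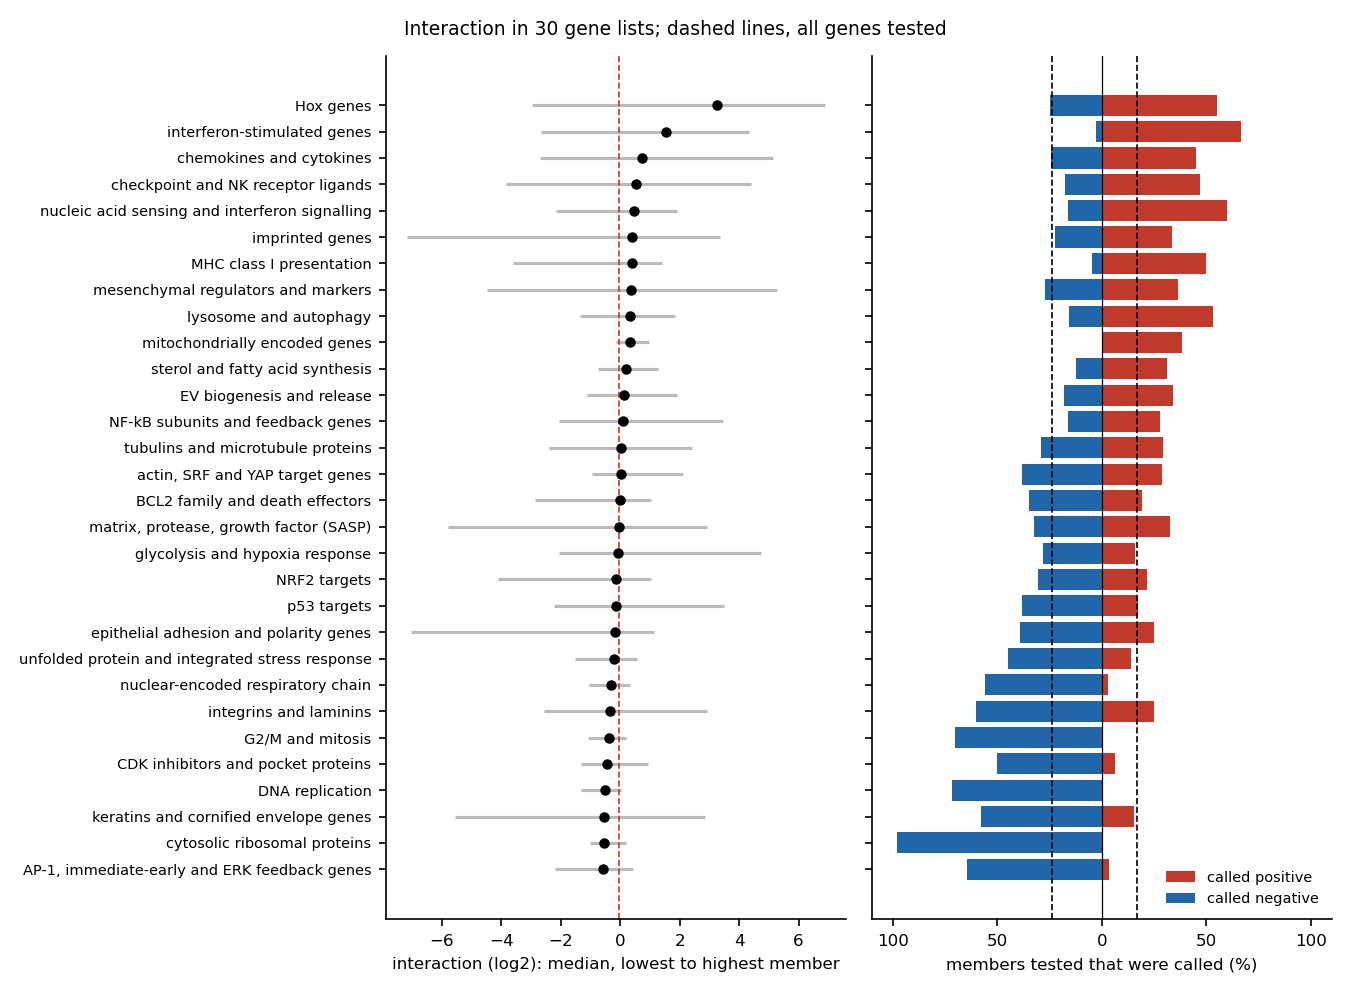
Interaction in 30 gene lists, ordered by median: on the left the median (point) and the lowest to highest tested member (line) in log2 units, on the right the percentage of tested members called positive (red) and negative (blue), with dashed lines for all genes tested (median -0.04; 16.9% positive and 23.8% negative). Hox and interferon-stimulated genes have the highest medians (3.26 and 1.54), and 97.8% of ribosomal protein genes are called, all negative.

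Genes of vesicle biogenesis and release, the process named by the labels, were called in both directions. Of 44 tested, 15 were called positive (34.1%, against 16.9% of all genes) and 8 negative (18.2%, against 23.8%), with a median of 0.14. With upper-quartile scaling the counts were 22 (50%, against 21.2% of all genes) and 5, and the median ran from 0.07 to 0.26 over the alternatives. Exchanged, 3 were called positive and 8 negative and the median was -0.09. Tspan8, a tetraspanin of exosomes, stood at 51.5, 44.9 and 37.4 CPM in EV-proficient DMSO and 95.4, 88.7 and 91.5 CPM in EV-proficient paclitaxel libraries, and went from 19.4, 20.6 and 20.3 to 129, 133 and 105 CPM in EV-deficient ones. The groups were all apart, and the interaction was 1.56 ± 0.14 (edgeR adjusted p = 7.88e-09). Exchanged it was -0.74 and called. Sdc1, the syndecan whose tail binds syntenin, fell by 1.11 in EV-deficient cells alone (-1.10 ± 0.08). Rab27a, a small GTPase that docks vesicle-bearing endosomes at the plasma membrane, stood between 4.54 and 5.91 CPM in all 12 libraries, with no called paclitaxel effect and an interaction of -0.10 ± 0.20. Since the labels do not name the targeted gene, none of these levels checks them.

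Lysosome and autophagy genes had 17 positive (53.1%, against 16.9% of all genes) and 5 negative (15.6%, against 23.8%) of 32. The median was 0.34, and exchanged, 7 were positive and 1 was negative. Hexa, a lysosomal hydrolase gene, rose by 2.59 and 1.23 (-1.35 ± 0.13; exchanged 0.62 and called). Sterol and fatty acid genes had 10 positive and 4 negative of 32 (43.8% called, near the 40.7% of all genes), and 16 and 3 with upper-quartile scaling. Exchanged, 1 was positive and 4 were negative. Cyp51, a demethylase of cholesterol synthesis, fell by 0.90 and rose by 0.36, and Scd1, the stearoyl-CoA desaturase, rose by 0.51 and fell by 0.23 (exchanged 0.33 and called, against -0.75). Stress genes of the unfolded protein response had 13 negative (44.8%, against 23.8% of all genes) and 4 positive (13.8%, against 16.9%) of 29. Exchanged, 7 were negative and 1 was positive. With no filter, or without EV-proficient DMSO replicate 1 or 2 or EV-deficient DMSO replicate 2 or 3, 2 were positive. Chac1, a glutathione-degrading target of ATF4, had -1.52 ± 0.14, and Edem1, of endoplasmic reticulum degradation, had 0.57 ± 0.09. Of 32 glycolysis and hypoxia genes 9 were negative and 5 positive (43.8% called, near the 40.7% of all genes; 6 and 7 with upper-quartile scaling; exchanged, 3 and 3). Angptl4, a lipoprotein lipase inhibitor, fell by 4.30 in EV-proficient cells and rose by 0.43 in EV-deficient cells, where the libraries overlapped, and Ddit4, an mTORC1 inhibitor, rose by 3.37 and 1.30.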

How the data were processed

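Stranded libraries of polyadenylated RNA were sequenced, per the labels' protocols. The deposited file holds raw read counts, whole numbers without normalization, for each gene. STAR 2.5.0a and GRCm38 are named in the submitters' processing notes, without their role; the counting program, annotation and use of strand are not given in the sources used here, so reads of overlapping or antisense genes cannot be told apart. Columns were matched to samples by the sample descriptions, and the titles gave group and replicate number, as deposited. The table had 0 columns of other samples. Of 55423 rows, 2 that the authors added (gfp and dngfr) were left out of library sizes and tests; gfp had 0 counts in every library.

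The analysis used edgeR 4.0.16 in R 4.3.3: filterByExpr on the 4 groups (minimum count 10), trimmed mean of M values scaling, and a quasi-likelihood fit of group means over 12 libraries (common dispersion 0.00956). Benjamini-Hochberg adjustment ran over all 18108 genes, with a threshold of 0.05. Standard errors come from the log2 difference and the root of its F statistic. A floor of 3 counts per library was used for groups at or near 0; it covers counting error only. The test was first tested on simulated counts.

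The members and the 30 gene lists were chosen with earlier results of these data known. Named genes were the 6 highest and 6 lowest called interactions with a mean of at least 5 CPM and a symbol that is no clone name, in each direction the 4 crossings whose smaller absolute effect was largest, the highest and lowest called member of each list, and 10 fixed genes; other list members, among them the Hoxb genes, Oas3, Ccl2 and Rps19, were chosen after their values were seen. Other settings tried were upper-quartile and median-of-ratios scaling, no filter, 1 CPM in 3 libraries, DESeq2 1.42.0, limma-voom (limma 3.58.1), the replicate number as a block, each library left out, and, added after the data were seen, the EV labels exchanged within DMSO. Some named genes are not reported here.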

Additional observations from a re-analysis of the deposited data

Results flagged for a closer look

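The paclitaxel effect differed between the derivatives by a test of the difference itself for 7370 genes. Each interaction in the report is such a test, so only those with called effects in opposite directions are repeated here: Lmo1 (6.48), Ebf3 (6.39), Dmbx1 (5.37) and Epdr1 (5.26) on the positive side, and Plac8 (-8.01), Peg10 (-7.17), Nectin4 (-7.02) and Bmp7 (-6.83) on the negative side. In each of them the EV-proficient DMSO and EV-deficient paclitaxel libraries stood together, apart from the other 6.

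A signal appeared in the dngfr row that the authors added, which no comparison used. It reached 10.9 CPM in EV-deficient paclitaxel and 8.99 CPM in EV-proficient DMSO libraries, against 2.15 CPM in EV-deficient DMSO libraries, so that the 2 groups with the higher level were the same as for Lmo1. The cause was not tested. Groups of 3 were not checked for single outlying values. Over all genes, a chi-square per degree of freedom between replicates was 19.7 and 27.8 for the pairs with EV-deficient paclitaxel replicate 3, and 4.2 to 15.1 for the others.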

How the results depend on the processing

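When the EV labels were exchanged within DMSO, 1739 genes were called in place of 7370, 356 of them at least 2-fold in place of 2526, and 35.5% were positive. Of 71 named genes with a called interaction, 23 were also called then, 14 with the same and 9 with the opposite sign; exchanged within paclitaxel the signs turn, to 9 and 14, and 64.5% were positive. Over the other alternatives the count of called genes stayed between 6560 and 7455, and every gene called both there and in the main analysis had the same sign. The share of called interactions that were positive, 41.4%, was 53.9% with upper-quartile scaling, 45.8% with median-of-ratios factors, 35.7% with no filter, 44.7% with 1 CPM in 3 libraries, 46% with DESeq2 and 40.2% with limma-voom; leaving out single libraries gave 39.1% to 46.1%. The cause was not tested. The interaction of the mitochondrial share ran from 0.312 to 0.5 percentage points when single libraries were left out. Requiring a further GAA unit left 5 interferon-stimulated genes with a match in place of 19. Of 1406 refitted values for named genes, 1385 kept their call or lack of it, 21 lost a call and 0 called values changed sign: besides Lcn2 and Cdkn2a, calls were lost for Kcnq1ot1, Casp4, Uqcrb, Spry4 and Ifi44. The medians of the BCL2, actin, tubulin, NRF2, glycolysis, mesenchymal and secretome lists changed sign in at least 1 alternative. Upper-quartile scaling gave medians of -0.24 for G2/M genes and -0.18 for the respiratory chain, and 8 positive stress genes in place of 4. Leaving out 1 library moved the checkpoint ligand median to 0.80 (EV-deficient paclitaxel replicate 2), the positive sterol genes to 17 (the same library), the called NF-kB genes to 4 and 3 (EV-deficient DMSO replicate 1) and the positive imprinted genes to 3 (EV-proficient DMSO replicate 1). With the replicate number as a block 7386 genes were called; the numbers are not taken as pairs, since only 4 of 18 same-number correlations exceeded 0.1, although 7 of 12 libraries matched their own number best. In the lowest of 5 expression bins the median standard error was 1.04, and a call needs a difference well above its standard error. Differences of that size or somewhat larger were thus mostly not detectable there at this depth.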

Other observations

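Of 26 tested death genes (BCL2 family and effectors), 9 were called negative (34.6%, against 23.8% of all genes) and 5 positive (19.2%, against 16.9%). The median was -0.01. Upper-quartile scaling gave 6 negative and 7 positive, and the exchange of EV labels within DMSO gave 3 and 1. Bok, a pro-apoptotic member, fell by 1.19 in EV-deficient cells alone, and Casp4, an inflammatory caspase, rose by 3.01 and 4.05. Actin, SRF and YAP target genes had 8 negative (38.1%, against 23.8% of all genes) and 6 positive (28.6%, against 16.9%) of 21. The median was 0.01, and exchanged, 3 were negative and 2 positive. The tropomyosin gene Tpm4 fell by 0.66 and rose by 0.28, while Tpm2 fell by 1.09 in EV-deficient cells alone. NRF2 targets of the oxidant response had 7 negative (30.4%, against 23.8% of all genes) and 5 positive (21.7%, against 16.9%) of 23. The median was -0.13, and exchanged, 0 were negative and 6 positive. Gsta4, a glutathione transferase, had -1.15 ± 0.19 (exchanged 0.83 and called), and Me1, a malic enzyme, had 1.02 ± 0.09. Nqo1, a quinone reductase named after its values were seen, rose by 2.39 and fell by 1.73, at no more than 2.07 CPM in any library. Imprinted genes had 6 positive (33.3%, against 16.9% of all genes) and 4 negative (22.2%, near the 23.8% of all genes) of 18. The median was 0.38, and exchanged, 5 were positive and 1 was negative. Kcnq1ot1, a long non-coding RNA, had 1.07 ± 0.38, a call lost in 6 of 19 alternatives (0.67 to 1.36).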
